A study of Homo sapiens with 48 samples.

Results

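The AP-1 transcription factors were followed as 9 genes taken by gene name: FOS, FOSB, FOSL1 and FOSL2 of the FOS family, JUN, JUNB and JUND of the JUN family, and the related basic leucine zipper factors ATF3 and MAFF. They are 9 of the 29744 genes in the deposited tables. RNA was sequenced from 48 libraries of an immortalized human skin fibroblast line that carries an mNeonGreen reporter in the IL11 gene (IL11mNG fibroblasts). In the CRISPRko arm the cells stably express Cas9 and were infected with a non-targeting guide (H47_Ctrl) or a guide against GLIS3 (H47_KO), and in the CRISPRa arm they stably express dCas9–VP64, which activates transcription at the guide's site, with a non-targeting or a GLIS3 guide (VP64_Ctrl and VP64_A). The reporter cells had been sorted into single-cell clones before Cas9 or dCas9–VP64 was added, and whether both arms share a clone is not given. After infection with a guide, each group was a drug-selected bulk population rather than a new clone, so edited and unedited cells can be mixed in it. TGFβ with IL-1β, each at 10 ng/ml, was given for 0, 6, 12 or 24 h, and each of the 16 conditions has 3 libraries. The study's methods call its culture replicates independent, but they come from a single cell line and the labels tie no library to a culture, so p-values measure the spread between these libraries and not between donors.

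AP-1 is a dimer of basic leucine zipper proteins that binds the sequence TGACTCA. FOS proteins cannot pair with themselves and need a JUN partner, whereas JUN proteins pair with each other as well as with FOS or ATF proteins. Growth factors, TGFβ and IL-1β reach these factors through MAP kinases, which phosphorylate the proteins and switch on their genes. FOS, FOSB, JUN and JUNB are classical immediate-early genes, whose transcripts appear and decay quickly, while FOSL1 and FOSL2 come later and stay longer. In fibroblasts AP-1 is known for driving matrix metalloproteinases, cytokines and wound repair genes.

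The libraries held 2321990 to 10661004 estimated counts (median 5139646). In the CRISPRa arm the labels go against each other: the libraries described as VP64_A have titles, genotypes and conditions that name them as the control, and those described as VP64_Ctrl are named there as GLIS3 activation. GLIS3 was higher in the libraries described as VP64_A by a log2 difference of 2.71 to 3.61 at the 4 times, so every direction in this arm is given for the groups as described. In the libraries labelled H47_KO, GLIS3 was 0.354, 0.144 and 0.395 CPM (counts scaled to the effective library size) at 0 h, below the 2.03, 1.45 and 2.16 CPM of H47_Ctrl (log2 -2.55, adjusted p = 0.0355), and the later differences of -1.80 to -1.17 did not pass the test. All 10 fibroblast markers had a median above 1 TPM (an abundance corrected for transcript length and library total) in every group, while EPCAM, KRT1, KDR, LYZ and CD3E were at 0 in every library. Of 5 leukocyte markers CD68 alone had a median above 1 TPM, in every group. Their sum ran from 13.75 to 69.7 TPM over the libraries. Among the epithelial markers KRT10 passed this level in every group and KRT14 in VP64_A and VP64_Ctrl. The summed level of 6 epithelial markers was 18.04 to 84.6 TPM in the libraries described as VP64_A, 6.11 to 22.3 TPM in VP64_Ctrl and at most 11.03 TPM in H47_Ctrl and H47_KO, and its part in the differences between the CRISPRa groups was not tested. In RNA from whole cultures, fewer cells making a transcript and less of it per cell cannot be told apart.

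FOSL1 (FRA-1) was the most abundant of the 9 transcripts in every library. Over all 48 libraries its median level was 141.8 TPM, with a range of 67.1 to 394 TPM. JUNB followed at a median of 39.3 TPM, MAFF at 28.6, FOSL2 at 13.2, JUN at 10.8, ATF3 at 2.14, FOS at 0.647, JUND at 0.141 and FOSB at 0.0574 TPM. The ranges of neighbours in this order overlapped over the 48 libraries, since JUNB ran from 7.92 to 86.8 TPM and JUN from 5.27 to 24.3 TPM. FOS, the founding member of the family, never exceeded 22 counts in a library and was at 0 in 5 of 48. FOSB was at 0 in 22 libraries and JUND in 20. In the gene models of GRCh38 (GENCODE v44), FOSL1 lies on the minus strand of chromosome 11 at 65892049 to 65900573 with 4 exons. FOSL2 lies on chromosome 2 at 28392448 to 28417317 (plus strand), JUN on chromosome 1 at 58776845 to 58784048 (minus), JUNB on chromosome 19 at 12791486 to 12793315 (plus), ATF3 on chromosome 1 at 212565334 to 212620777 (plus) and MAFF on chromosome 22 at 38200767 to 38216507 (plus). JUN and JUNB have a single exon each. JUNB overlaps HOOK2, MAFF overlaps PLA2G6, FOSB overlaps ERCC1 and FOSL2 overlaps FOSL2-AS1 on the other strand. Whether reads were counted by strand is not given in the sources used here, so values of these members may hold reads of the overlapping gene.

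The promoters of JUN, JUNB, ATF3 and MAFF are shown as those of members that rose at 6 h, as described below, and because AP-1 genes are known to be regulated by AP-1 and ATF dimers, which bind TGACTCA and the longer TGACNTCA. For the 8 members other than FOSL1 RefSeq gave 10 windows, each from 250 bases before to 50 bases after a transcription start (GRCh38.p14). Capitals mark the matches to TGACNTCA, and the lines give the 250 bases before the start, 5′ to 3′ on the gene's strand, of JUN (chr1:58784048-58784297, minus strand), the first start of MAFF (chr22:38201744-38201993, plus strand), the first start of ATF3 (chr1:212565157-212565406, plus strand) and JUNB (chr19:12791236-12791485, plus strand).
JUN: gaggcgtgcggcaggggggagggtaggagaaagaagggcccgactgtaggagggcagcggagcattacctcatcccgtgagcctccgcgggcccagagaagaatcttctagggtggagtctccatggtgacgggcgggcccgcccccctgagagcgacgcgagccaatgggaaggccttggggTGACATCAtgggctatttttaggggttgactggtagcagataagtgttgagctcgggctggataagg
MAFF: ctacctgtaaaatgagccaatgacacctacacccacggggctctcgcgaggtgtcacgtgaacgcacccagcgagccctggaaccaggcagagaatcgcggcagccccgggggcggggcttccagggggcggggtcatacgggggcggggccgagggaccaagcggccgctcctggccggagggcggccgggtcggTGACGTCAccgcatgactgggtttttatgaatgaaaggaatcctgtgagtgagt
ATF3: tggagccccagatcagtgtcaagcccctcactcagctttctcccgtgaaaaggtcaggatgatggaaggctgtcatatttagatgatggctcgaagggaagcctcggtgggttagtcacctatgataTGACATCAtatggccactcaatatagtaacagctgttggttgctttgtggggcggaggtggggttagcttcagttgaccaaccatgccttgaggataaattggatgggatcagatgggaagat
JUNB: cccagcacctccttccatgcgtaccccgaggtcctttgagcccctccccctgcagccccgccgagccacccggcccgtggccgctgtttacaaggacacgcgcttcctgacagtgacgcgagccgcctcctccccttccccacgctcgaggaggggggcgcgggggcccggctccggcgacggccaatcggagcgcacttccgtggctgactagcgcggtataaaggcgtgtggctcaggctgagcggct
JUN holds TGACATCA ending 59 bases before its start, MAFF holds TGACGTCA ending 46 bases before and ATF3 holds TGACATCA ending 115 bases before, and JUNB holds no match. JUND, too low to compare, holds TGACGTCA ending 192 bases before its start. TGACNTCA, searched on both strands, was thus in 4 of the 10 windows, and in 7.72% of 35116 windows of the same length over all genes. TGACTCA was in 1 of 10, that of FOSL2, and in 4.95% of all windows. The CArG box of serum response factor was in 0 of 10 windows (1.29% of all windows). The NF-κB site was in 0 of 10 windows (8.4% of all windows) when read on the gene's strand only. Matches on the other strand were not counted, and the 250 bases before the second start of MAFF hold such a match. The count of 0 thus does not show that these windows lack the NF-κB site.

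FOSL1 rose in all 4 groups within 6 h. In H47_Ctrl the 3 libraries held 102.2, 84.4 and 127 CPM at 0 h and 148, 262 and 377 CPM at 6 h. The corresponding values were 167, 131 and 82.9 against 228, 381 and 319 CPM in H47_KO. They were 192, 165 and 149.9 against 354, 476 and 497 CPM in VP64_Ctrl and 116, 111 and 111 against 278, 428 and 485 CPM in VP64_A. No 6 h library overlapped a 0 h library of its own group, although the 6 h libraries spread by more than 1.5-fold in 3 of the groups. The log2 fold change at 6 h was 1.33 ± 0.25 (SE) in H47_Ctrl, 1.28 ± 0.25 in H47_KO, 1.39 ± 0.19 in VP64_Ctrl and 1.82 ± 0.19 in VP64_A, with adjusted p of at most 0.000204. On the TPM scale the rise in VP64_Ctrl was smaller, at 0.63, and still passed (limma, adjusted p = 0.00218 to 0.0032).

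The FOSL1 peak had passed by 12 h. In the CRISPRko arm, FOSL1 stood at 112 ± 12.8 (SD, n = 3) CPM in H47_Ctrl and 93.4 ± 4.66 CPM in H47_KO at 12 h, and neither differed from 0 h by the test. At 24 h the H47_KO libraries, at 70.3, 84.96 and 53.5 CPM, were below 0 h by a log2 fold change of -0.88 ± 0.25 (adjusted p = 0.0129). The ranges overlapped, since the lowest 0 h library of H47_KO was at 82.9 CPM, and the call was lost without H47_KO 0 h replicate 1 (log2 -0.63, adjusted p = 0.129) or 24 h replicate 3 (-0.71, 0.0933). H47_Ctrl, at 78.4, 99.6 and 87.5 CPM, did not pass (-0.24 ± 0.25, adjusted p = 0.683), and the difference between these changes did not pass either (-0.64 ± 0.35, adjusted p = 0.875). In VP64_A, FOSL1 remained above its 0 h level at 12 h (173, 161 and 183 CPM, log2 0.61 ± 0.19, adjusted p = 0.0197) and 24 h (179, 166 and 158 CPM, 0.58 ± 0.19, 0.0389), without overlap with the 0 h libraries. The 12 h call was lost without VP64_A 0 h replicate 2 (adjusted p = 0.0554) or 3 (0.0728) or 12 h replicate 3 (0.0684), and the 24 h call without any of 11 libraries of the arm, as without VP64_A 24 h replicate 1 (log2 0.52, adjusted p = 0.14). On the TPM scale neither passed (log2 0.32 and 0.29), nor did either in a fit of all 48 libraries (adjusted p = 0.0667 and 0.116), and with DESeq2 size factors the 24 h value was at 0.0502. VP64_Ctrl, at 159, 148 and 232 and then 177, 208 and 174 CPM, did not differ from 0 h by the test.

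FOSL2 (FRA-2), a stable FOS relative also linked to fibrosis, moved little. At 0 h it held 49.3, 45.9 and 52.7 CPM in H47_Ctrl, 52.3, 50.8 and 36.7 in H47_KO, 40.2, 49.3 and 61.99 in VP64_Ctrl and 30.5, 34.3 and 38.7 in VP64_A. At 24 h it held 50.8, 68.7 and 60.6 CPM in H47_Ctrl, 69.9, 64.9 and 60.2 in H47_KO, 73.8, 69.7 and 69.3 in VP64_Ctrl and 53.01, 55.3 and 52.8 in VP64_A. The 24 h libraries of H47_KO, VP64_Ctrl and VP64_A were all above the 0 h libraries of their group, and the test called a rise there, with log2 fold changes of 0.48 ± 0.15, 0.50 ± 0.15 and 0.64 ± 0.16 (adjusted p = 0.0279, 0.0225 and 0.00448). In H47_Ctrl the change was 0.28 ± 0.16 and did not pass (adjusted p = 0.343). The H47_KO call was lost without its 0 h replicate 3 (log2 0.34, adjusted p = 0.162) or 24 h replicate 1 (0.42, 0.0897). The VP64_Ctrl call was lost without its 0 h replicate 1 (0.34, 0.178) or 2 (0.46, 0.0723), or its 24 h replicate 1 (0.47, 0.085) or 2 (0.49, 0.0555). In a fit of the compared libraries alone neither passed (adjusted p = 0.122 and 0.0803), and on the TPM scale none of the 3 rises did, with VP64_Ctrl at 0.07. At 6 h FOSL2 rose by the test in VP64_A alone, to 54.6, 50.6 and 51.2 CPM (0.60 ± 0.16, adjusted p = 0.00645) and not on the TPM scale (log2 0.27 to 0.29, adjusted p = 0.57 to 0.659). The difference of this change from that of VP64_Ctrl did not pass (0.43 ± 0.22, adjusted p = 0.545).

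FOS and FOSB stayed near the limit of detection. In H47_Ctrl, FOS had 1, 13 and 4 counts at 0 h and 11, 11 and 5 at 6 h, and in VP64_A it had 9, 7 and 4 at 0 h and 9, 6 and 9 at 6 h. It passed the filter on low counts in the CRISPRa arm only. The single call there was a lower level at 12 h in VP64_Ctrl, where the libraries held 1, 0 and 1 counts after 22, 8 and 8 at 0 h. The summed counts were 2 against 38, a ratio per effective library size of 0.115 with an exact 95% interval for counting error of 0.0135 to 0.446, and the call was lost without 0 h replicate 1 (adjusted p = 0.057) or 12 h replicate 2 (0.0776). FOSB had 26 summed counts at 6 h in H47_Ctrl against 3 at 0 h, a ratio of 9.35 (interval 2.87 to 48.3). Its other groups at 6 h had 4 to 7 summed counts, and it passed the filter in neither arm. No time between 0 and 6 h was sampled.

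JUN and JUNB, the partners of these FOS proteins, had different courses. JUN at 0 h held 24.8, 17.4 and 35.4 CPM in H47_Ctrl, 14.3, 29.6 and 22.6 in H47_KO, 31.6, 28.8 and 28.9 in VP64_Ctrl and 25.2, 34.1 and 35.9 in VP64_A. At 6 h it held 33.2, 36.8 and 57.7 CPM in H47_Ctrl, 27.4, 31.2 and 23.9 in H47_KO, 51.4, 37.9 and 38.3 in VP64_Ctrl and 43.6, 40.3 and 56.7 in VP64_A. The 0 h and 6 h libraries overlapped in both CRISPRko groups and in neither CRISPRa group. JUN rose by the test in H47_Ctrl (0.73 ± 0.23, adjusted p = 0.029), VP64_Ctrl (0.53 ± 0.18, 0.0263) and VP64_A (0.57 ± 0.18, 0.0254), and H47_KO gave 0.29 ± 0.25 (adjusted p = 0.421). Each of these calls rested on single libraries. It was lost in H47_Ctrl without 0 h replicate 1 (log2 0.71, adjusted p = 0.0922) or 2 (0.51, 0.218) or 6 h replicate 3 (0.48, 0.234). It was lost in VP64_Ctrl without 0 h replicate 2 (0.52, 0.061) or 3 (0.49, 0.0793) or 6 h replicate 1 (0.36, 0.207), and in VP64_A without 0 h replicate 1 (0.42, 0.161) or 6 h replicate 3 (0.41, 0.174). On the TPM scale, which has no correction for library composition, JUN in VP64_Ctrl was lower at 6 h by 0.23 on the log2 scale, while the median of all genes there was lower by 0.68. JUN on that scale passed in neither H47_Ctrl (log2 0.60, adjusted p = 0.267) nor VP64_A (0.29, 0.543). The H47_Ctrl call was also lost by DESeq2 (adjusted p = 0.0518), and those of VP64_Ctrl and VP64_A in a fit of all 48 libraries (0.0563 and 0.0594). JUN then dropped: at 12 h VP64_Ctrl held 13.4, 17.9 and 17.6 CPM, below each of its 0 h libraries (-0.87 ± 0.19, adjusted p = 0.000769), and at 24 h 17.4, 17.8 and 19.7 CPM (-0.70 ± 0.19, 0.00799). The other 3 groups had log2 differences of -0.48 to 0.03 from 0 h at these times and did not pass.

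JUNB, which binds the same sites as JUN but activates many of them more weakly, rose and stayed up. H47_Ctrl went from 16.5, 15.6 and 15.7 CPM at 0 h to 67.9, 98.1 and 78.3 CPM at 6 h, and H47_KO from 15.7, 15 and 11.1 to 69.96, 66.9 and 73.6 CPM. VP64_Ctrl went from 12.3, 9.94 and 8.24 to 47.98, 65.6 and 42.9 CPM. VP64_A went from 9.10, 8.18 and 9.56 to 89.8, 75.1 and 115 CPM, with the highest JUNB library of the series. No 6 h library overlapped the 0 h libraries, and the log2 fold changes were 2.35 ± 0.25, 2.34 ± 0.26, 2.35 ± 0.19 and 3.38 ± 0.20 in the order of these groups (adjusted p of at most 1.18e-08). On the TPM scale with pseudocount 1 the rise in VP64_Ctrl was smaller, at 1.53, and still passed (limma, adjusted p = 2.79e-05). At 24 h JUNB was still 1.92 to 2.25 above 0 h on the log2 scale in all 4 groups, although H47_KO replicate 3 was at 28.6 CPM and its other libraries at 77.6 and 65.2 CPM. JUND, usually a constant member of the family, had 0 to 5 counts in every library and allows no comparison.

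ATF3, a stress-induced factor that often represses, started near 0. Its counts at 0 h were 0, 5 and 0 in H47_Ctrl, 3, 2 and 5 in H47_KO, 0, 8 and 6 in VP64_Ctrl and 12, 1 and 1 in VP64_A. At 6 h it held 7.33, 8.56 and 7.12 CPM in H47_Ctrl, 12, 11.9 and 8.72 in H47_KO, 7.88, 7.57 and 5.80 in VP64_Ctrl and 2.92, 5.12 and 7.24 in VP64_A. Each 6 h library was above the 0 h libraries of its group, and the rise was called in all 4 groups (adjusted p of at most 0.000386). Because so few reads stood at 0 h, the size is best read from summed counts: the ratio of 6 h to 0 h was 26.5 in H47_Ctrl (exact 95% interval for counting error 11.1 to 83.2), 21.6 in H47_KO (11.2 to 46.7), 16.5 in VP64_Ctrl (9.37 to 31.4) and 9.07 in VP64_A (5.04 to 17.5). The 0 h level in these ratios rested on 1 library for H47_Ctrl, where replicate 2 held all 5 counts, and for VP64_A, where replicate 1 held 12 of 14. Without that library the fitted log2 fold change went from 4.62 to 8.28 in H47_Ctrl, against a 0 h group at 0, where the value depends on the prior count and is no bound, and from 3.25 to 4.94 in VP64_A. ATF3 dipped at 12 h and at 24 h was called above 0 h in H47_Ctrl, H47_KO and VP64_Ctrl (4.25 ± 1.56, 5.62 ± 1.14 and 6.21 ± 1.53 CPM). In VP64_A it stood at 2.87, 0.343 and 1.90 CPM and did not pass (adjusted p = 0.113).

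MAFF, a small MAF protein that lacks an activation domain of its own, made the largest rise among the members with more than a few reads at 0 h. H47_Ctrl went from 9.18, 7.57 and 9.45 to 101, 137 and 127 CPM and H47_KO from 11.8, 7.50 and 9.22 to 129, 170 and 119 CPM within 6 h. VP64_Ctrl went from 5.62, 8.37 and 4.19 to 101, 165 and 143 CPM, and VP64_A from 7.56, 7.67 and 5.27 to 111, 93.1 and 114 CPM. The log2 fold changes of 3.80 ± 0.25, 3.87 ± 0.25, 4.44 ± 0.24 and 3.93 ± 0.24 had no overlap between times. At 24 h MAFF had come down to means of 29.2 to 42.97 CPM over the groups, still 1.84 to 2.77 above 0 h on the log2 scale and called in each of them.

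**Figure D1:**
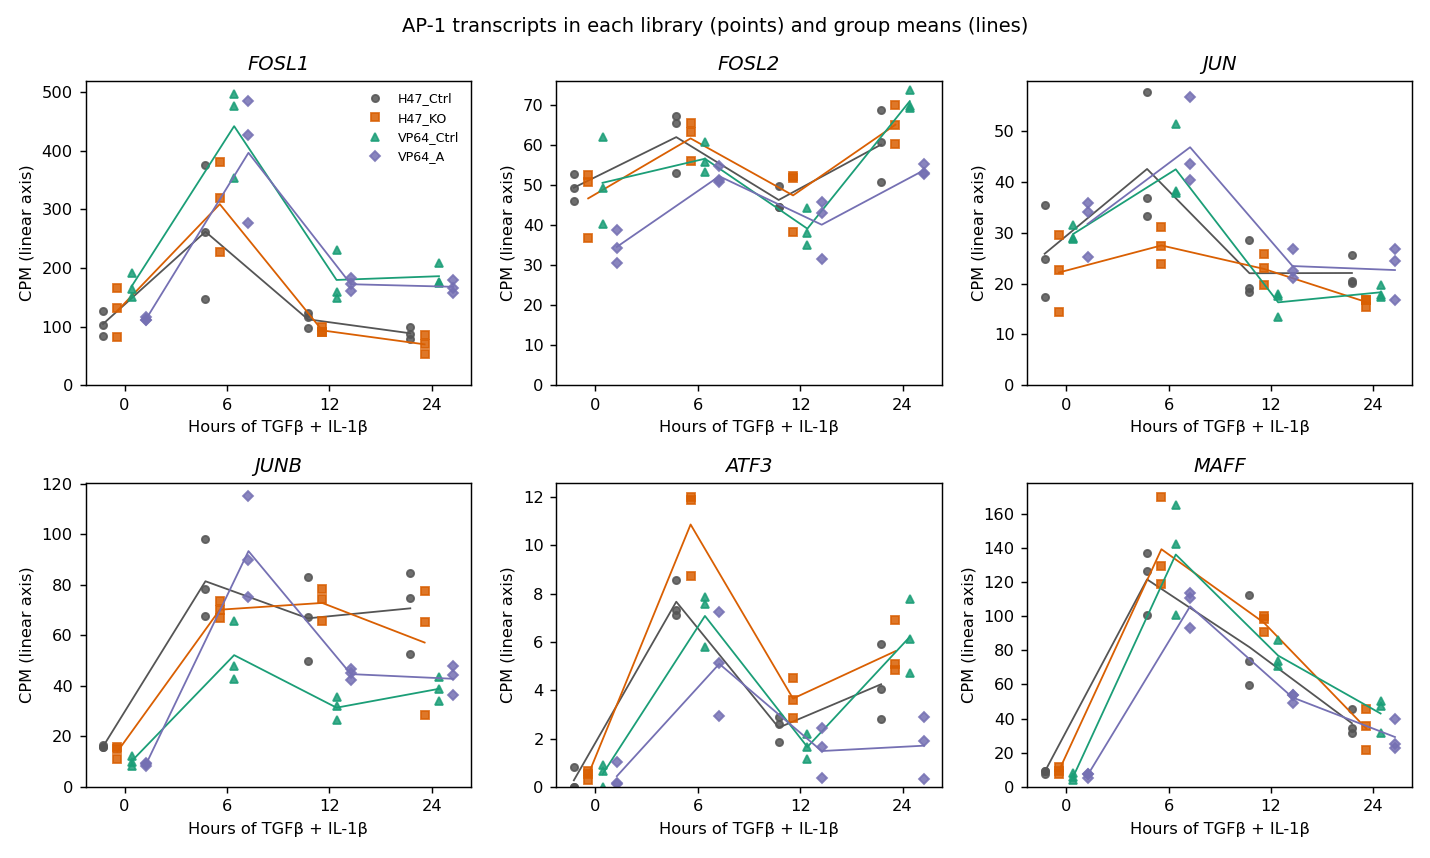
CPM (linear axis from 0) of 6 AP-1 transcripts in each library (points) against hours of cytokine treatment, with lines through the means of 3 libraries in the 4 groups of cells. FOSL1 and MAFF peak at 6 h, as in H47_Ctrl, where FOSL1 averaged 262 CPM at 6 h and 88.5 CPM at 24 h, whereas JUNB stays up at 24 h.

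Counted together, 5 of the 6 members tested in H47_Ctrl changed at 6 h, all upwards, against 15.9% of the 10962 genes tested, and their median log2 fold change was 1.84 where that of all genes was -0.03. In H47_KO 4 of 6 rose (all genes 23.9% called, members' median 1.81). In the CRISPRa arm, with 10980 genes and 7 members tested, 5 rose in VP64_Ctrl (all genes 28.8%) and 6 rose in VP64_A (17.4%), with medians of 1.38 and 1.82. FOSL1, JUNB, ATF3 and MAFF were among the risers of every group. ATF3 passed the filter on low counts through its treated libraries only, so its rise was partly fixed by that filter. FOSB and JUND were tested in neither arm, and FOS was not tested in the CRISPRko arm. The members were also chosen with earlier results of these data known, so these counts are descriptions and no independent evidence. At 12 h JUNB, ATF3 and MAFF were up in H47_Ctrl and in H47_KO, 3 of 6 in each against 19.6% and 27.4% of all genes. At that time VP64_Ctrl had JUNB and MAFF up and JUN and FOS down (4 of 7, all genes 26.8%), and VP64_A had FOSL1, JUNB and MAFF up (3 of 7, 19.7%). At 24 h the counts were 3 up of 6 in H47_Ctrl (10.3% of all genes called), 4 up and FOSL1 down in H47_KO (15.8%), 4 up and JUN down of 7 in VP64_Ctrl (16%) and 4 up of 7 in VP64_A (13.6%). The 3 comparisons of a group share its 0 h libraries. JUNB and MAFF were called up in all 12 of them.

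**Figure D2:**
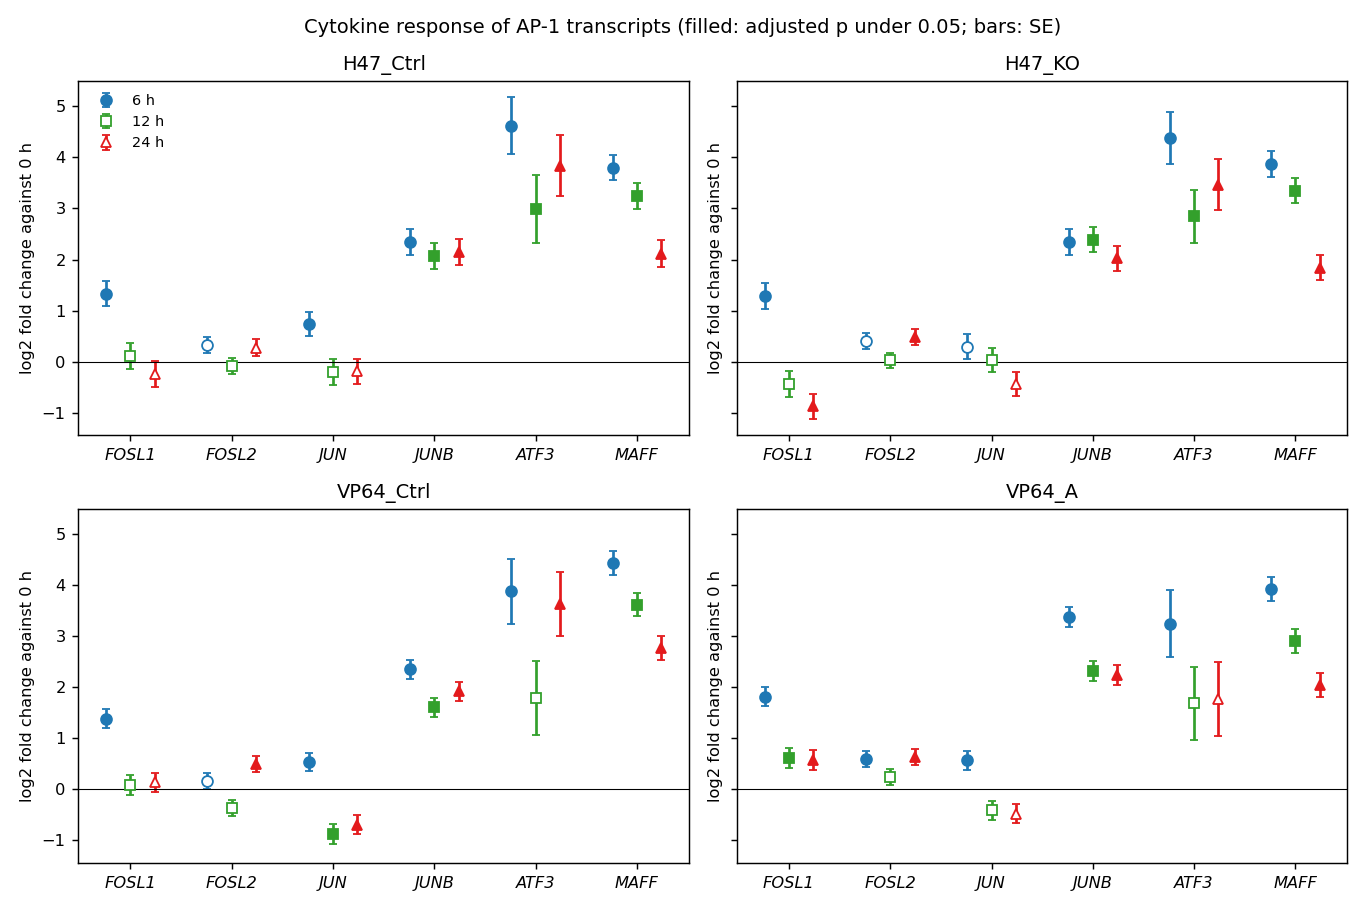
Fitted log2 fold change against 0 h of 6 AP-1 transcripts at 6, 12 and 24 h in each of the 4 groups (bars are SE, filled points passed an adjusted p of 0.05). ATF3, MAFF and JUNB lie highest in every panel, with MAFF at 4.44 at 6 h in VP64_Ctrl, while FOSL2 and JUN stay within about 1 unit of 0.

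Between 6 and 24 h the early part of the response was lost. FOSL1, JUN and MAFF fell in all 4 groups. FOSL1 fell by 1.57, 2.16, 1.25 and 1.24 on the log2 scale in H47_Ctrl, H47_KO, VP64_Ctrl and VP64_A (SE 0.19 to 0.26). JUN fell by 0.92, 0.73, 1.23 and 1.05. The JUN call in H47_KO (adjusted p = 0.0349) was lost without any of 5 of its libraries at these times, to an adjusted p of 0.0578 to 0.112 and a log2 of -0.77 to -0.67, and that in H47_Ctrl without its 6 h replicate 3 (-0.69, 0.0751), and on the TPM scale JUN in H47_KO was at -0.11, where the median of all genes was 0.56, and VP64_Ctrl did not pass (-0.77, 0.0563). MAFF fell by 1.68, 2.04, 1.67 and 1.88. JUNB fell by the test in VP64_A only (-1.13 ± 0.18, adjusted p = 1.99e-05), from its high 6 h level to 44.1, 48.04 and 36.2 CPM. ATF3 and FOSL2 passed in no group. These are 3 of 6 members in H47_Ctrl against 14.6% of all genes, 3 of 6 in H47_KO (24.2%), 3 of 7 in VP64_Ctrl (18.4%) and 4 of 7 in VP64_A (12.5%).

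The makeup of the AP-1 pool shifted from FOSL1 to JUNB and MAFF. Shares of the summed TPM of the 9 genes compare members within a library per length and do not depend on scaling between libraries. At 0 h FOSL1 made up 68.6% ± 2.32 (SD, n = 3) of this sum in H47_Ctrl, 73.6% ± 5.45 in H47_KO, 79.6% ± 2.31 in VP64_Ctrl and 75.04% ± 1.67 in VP64_A. At 24 h its share was 42.9% ± 5.67, 40.5% ± 4.86, 65.7% ± 2.53 and 66.9% ± 3.20. Every 24 h library was below every 0 h library of its group, and the shares in the CRISPRko arm (34.9 to 46.6%) lay below those in the CRISPRa arm (63.1 to 69.5%) at 24 h. The arms differ in the Cas9 construct and may differ in the starting clone, and construct, clone and arm cannot be told apart. JUNB rose from 9.64% ± 1.62 to 30.6% ± 5.04 of the sum in H47_Ctrl and from 5.36% ± 0.385 to 15.2% ± 1.20 in VP64_A. MAFF peaked at 12 h in H47_KO with 24.9% ± 1.40, up from 3.85% ± 1.29 at 0 h. The ratio of JUNB to JUN, in TPM, went from 1.30 ± 0.436 to 6.29 ± 1.18 in H47_Ctrl and from 0.568 ± 0.118 to 3.93 ± 1.21 in VP64_A between 0 and 24 h. The ratio of the summed FOS family to the summed JUN family was highest in VP64_Ctrl at 0 h (8.13 ± 0.181) and lowest in H47_KO at 12 h (1.41 ± 0.127), and it was above 1 in all 48 libraries, with a lowest value of 1.05. JUND, at 0 to 5 counts in a library, added almost nothing to the JUN family sum. This ratio and the shares thus rest on JUN and JUNB as the JUN family. Why JUND was so low was not tested, and a higher JUND level would lower this ratio and the shares of the other members. With 3 libraries against 3, an exact permutation test of such a share cannot go below a two-sided p of 0.1, so these shares are given as descriptions.

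**Figure D3:**
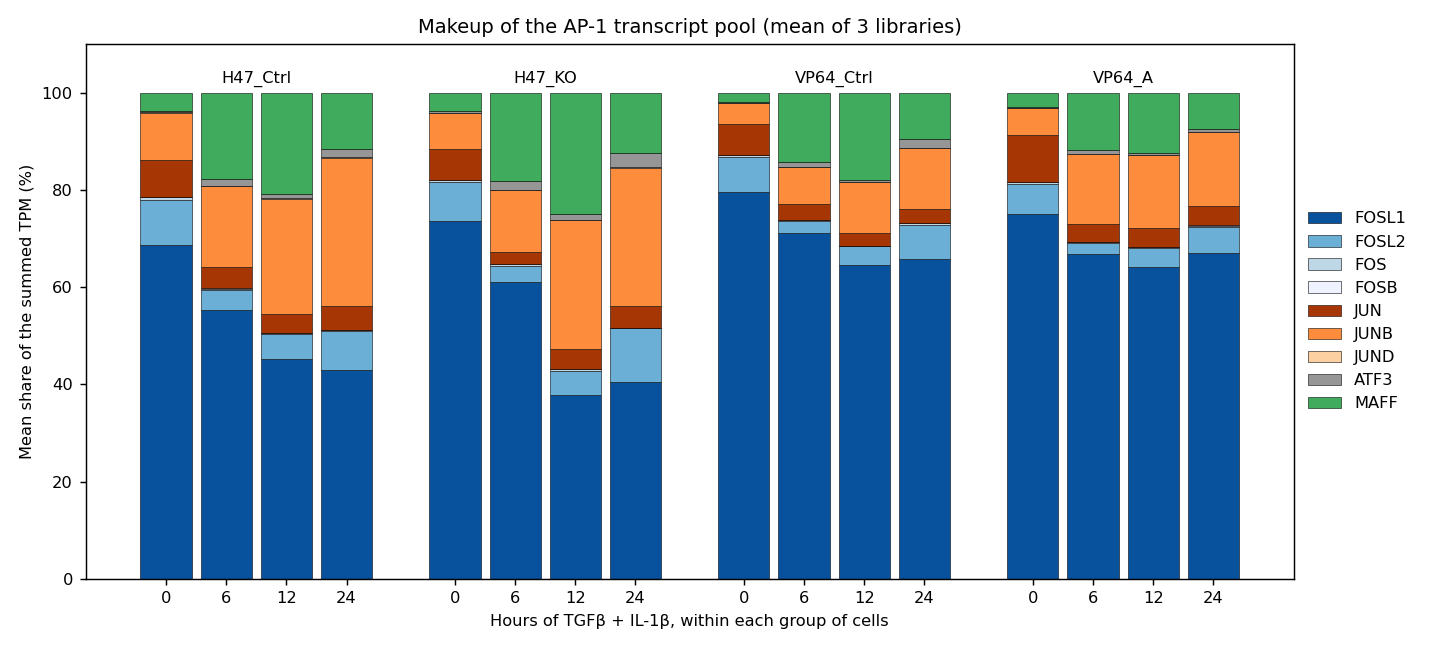
Mean share (%) of each of 9 AP-1 genes in their summed TPM before and after 6, 12 and 24 h of cytokines in the 4 groups (bars start at 0, each is the mean of 3 libraries). The dark blue FOSL1 segment is largest at 0 h and makes up 42.9% in H47_Ctrl at 24 h, where JUNB (light orange) takes 30.6%.

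In the libraries labelled H47_KO, no AP-1 member differed from H47_Ctrl by the test at any time. By edgeR's quasi-likelihood test 0 of the 6 members tested were called at each of the 4 times, where 0.301%, 0.319%, 0.0821% and 0.21% of all genes were, and DESeq2 called 0 as well. At an unadjusted p under 0.05 there was 1 of the 24 values, JUN at 6 h, with 27.4, 31.2 and 23.9 CPM in H47_KO and 33.2, 36.8 and 57.7 CPM in H47_Ctrl. The H47_KO libraries were all below those of H47_Ctrl (log2 -0.63 ± 0.25, adjusted p = 0.308). FOSL1 differed by 0.28 ± 0.25 at 0 h, 0.24 ± 0.24 at 6 h, -0.27 ± 0.25 at 12 h and -0.35 ± 0.25 at 24 h, with adjusted p of 0.662 or more. The sign at 6 h turns without H47_Ctrl replicate 1 of that time (-0.06) and on the TPM scale (-0.06), so no direction can be read there. FOSL2 and MAFF lay within -0.16 and 0.23 at all times, with SE of 0.16 to 0.28, and ATF3 between 0.36 and 0.73 with SE of 0.38 to 0.77. A p that misses the threshold does not show that the levels were equal. The cytokine response differed between H47_KO and H47_Ctrl for 0 of 6 members at 6, 12 and 24 h (0.00912%, 0% and 0% of all genes), with 0 at an unadjusted p under 0.05 and 0 by DESeq2.

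The libraries described as VP64_A differed from those described as VP64_Ctrl in 3 of 28 values. At 0 h FOSL1 was lower in VP64_A, at 116, 111 and 111 against 192, 165 and 149.9 CPM, with no overlap (log2 -0.59 ± 0.19, adjusted p = 0.0447). FOSL2 was lower too, at 30.5, 34.3 and 38.7 against 40.2, 49.3 and 61.99 CPM, also with no overlap (-0.55 ± 0.15, adjusted p = 0.0198). At 6 h JUNB was higher, at 89.8, 75.1 and 115 against 47.98, 65.6 and 42.9 CPM, each VP64_A library above each VP64_Ctrl library (0.82 ± 0.18, adjusted p = 0.00298). These are 2 of 7 members at 0 h against 9.41% of all genes and 1 of 7 at 6 h against 3.76%. At 12 and 24 h the test and DESeq2 called 0 of 7 (4.31% and 4.13% of all genes), with 3 at each time at an unadjusted p under 0.05: JUN, JUNB and MAFF at 12 h, and FOSL2, ATF3 and MAFF at 24 h. The FOSL1 and FOSL2 calls both went without VP64_A 0 h replicate 1 (log2 -0.61 and -0.46, adjusted p = 0.107 and 0.124) or 2 (-0.57 and -0.54, 0.111 and 0.0563) or VP64_Ctrl 0 h replicate 3 (-0.67 and -0.38, 0.0533 and 0.185), and the JUNB call without VP64_A 6 h replicate 3 (0.65, 0.0537). FOSL2 also lost its call in a fit of the compared libraries alone (adjusted p = 0.0737). FOSL1 lost its call without any of 13 of the 24 libraries of the arm, as it did with DESeq2 size factors (adjusted p = 0.0518) and in a fit of all 48 libraries (0.103), whereas on the TPM scale it was called at -0.96, where the median of all genes was -0.35.

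Later in the course FOSL1 did not differ between these groups by the test, at -0.15 ± 0.19, -0.06 ± 0.19 and -0.15 ± 0.19 for 6, 12 and 24 h, and its sign turned without VP64_A 6 h replicate 1 (0.03) and without VP64_Ctrl 12 h replicate 3 (0.17). ATF3 at 24 h was 2.87, 0.343 and 1.90 CPM in VP64_A and 6.13, 7.78 and 4.73 CPM in VP64_Ctrl. All VP64_A libraries were below all VP64_Ctrl libraries, by a log2 of -1.75 ± 0.59 that missed the threshold (adjusted p = 0.103) and passed it with no filter on low counts (adjusted p = 0.0152), in a fit of the compared libraries alone (0.0378) and on the TPM scale with pseudocount 1 (limma, 0.00574, or 0.0184 with no filter). MAFF at 24 h was 22.98, 39.5 and 25.1 against 47.1, 50.2 and 31.6 CPM, with overlap, and passed only without VP64_A replicate 2 of that time (log2 -0.82, adjusted p = 0.0465). The cytokine response of the members differed between the groups for 0 of 7 at 6, 12 and 24 h by edgeR and by DESeq2, against 0.0911%, 0.264% and 0.209% of all genes, with 1, 4 and 1 at an unadjusted p under 0.05. The JUNB response at 6 h was larger in VP64_A by 1.03 ± 0.27 (adjusted p = 0.177), and passed with no filter on low counts (adjusted p = 0.0329).

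**Figure D4:**
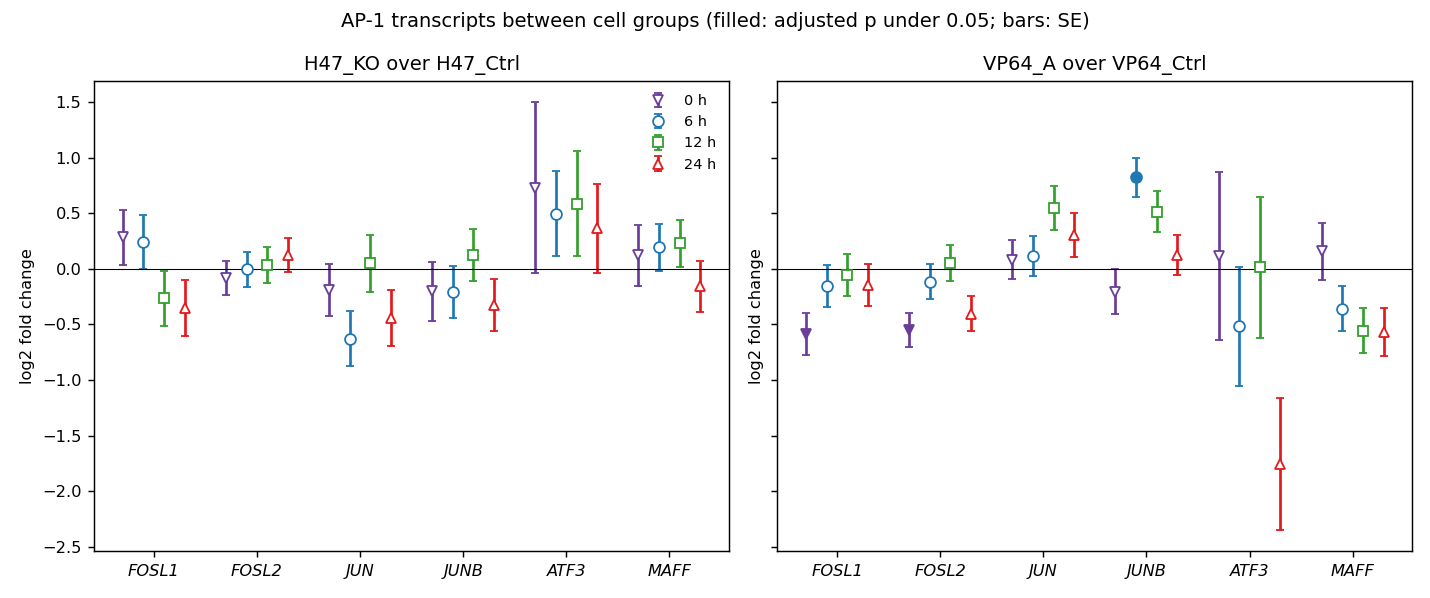
Fitted log2 difference of 6 AP-1 transcripts between H47_KO and H47_Ctrl (left) and between the libraries described as VP64_A and VP64_Ctrl (right) at the 4 times (bars are SE, filled points passed an adjusted p of 0.05). No point is filled on the left, and on the right FOSL1 (-0.59) and FOSL2 (-0.55) are filled at 0 h and JUNB (0.82) at 6 h.

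Other leucine zipper partners of AP-1 were followed as a list. Like the further lists below, it was chosen with earlier results of these data known, so the counts are descriptions. Of 8 tested, 4, 5, 5 and 4 rose at 6 h in H47_Ctrl, H47_KO, VP64_Ctrl and VP64_A, and NFE2L1 fell in VP64_Ctrl, where the test called 15.9%, 23.9%, 28.8% and 17.4% of all genes in these groups. The median log2 fold changes were 0.64, 1.06, 1.05 and 0.94, where all genes had medians of -0.10 to -0.01. NFE2L2, the NRF2 factor of the oxidative stress response that pairs with small MAF proteins, went from 63.5 ± 8.53 to 139 ± 26.4 CPM in H47_Ctrl (log2 1.13 ± 0.16) and rose by 1.28 ± 0.16, 1.31 ± 0.15 and 1.15 ± 0.15 in the other groups. MAFK, another small MAF, rose in the same 4 groups by 1.63 ± 0.32, 1.25 ± 0.34, 1.66 ± 0.31 and 2.15 ± 0.34. BACH1, a repressor that also pairs with small MAF proteins, rose by 1.11 ± 0.28 in H47_Ctrl, 1.52 ± 0.30 in H47_KO and 1.94 ± 0.34 in VP64_Ctrl.

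Among 20 tested genes of the MAP kinase pathway to AP-1, 6, 6, 8 and 8 rose at 6 h in the same order. TAB1 fell in VP64_Ctrl. These counts stand against 15.9%, 23.9%, 28.8% and 17.4% of all genes called, and the medians of the 20 genes were 0.43, 0.41, 0.51 and 0.56. MAP2K3, which activates p38, went from 153 ± 18.6 to 468 ± 70.2 CPM in H47_Ctrl (1.62 ± 0.18) and rose by 2.09 ± 0.18, 1.90 ± 0.18 and 1.57 ± 0.18 elsewhere. MAP3K8, a kinase of the IL-1 pathway to ERK, rose in all 4 groups from means under 1 CPM to 3.79 to 7.81 CPM. At so low a level at 0 h it passed the filter on low counts through its treated libraries, so its rise was partly fixed by that filter. Of 16 feedback inhibitors of the pathway, 10, 10, 8 and 9 rose at 6 h and 1 fell in H47_Ctrl (medians 1.09, 0.98, 0.68 and 1.07), against the same shares of all genes (15.9%, 23.9%, 28.8% and 17.4%). From 6 to 24 h 10, 13, 8 and 7 of them fell, against 14.6%, 24.2%, 18.4% and 12.5% of all genes called. ERRFI1, which blocks the EGF receptor, went from 7.19 ± 2.03 to 63.4 ± 11.96 CPM in H47_Ctrl (3.19 ± 0.24). SPRY4, an inhibitor of RAS signalling, rose by 2.18 ± 0.23 there and by 3.45 ± 0.22 in VP64_A. Its response at 6 h was larger in VP64_A than in VP64_Ctrl (difference 1.51 ± 0.30, adjusted p = 0.0395). DUSP6, the ERK phosphatase, fell from 72.4 ± 9.48 CPM at 6 h to 8.64 ± 0.479 CPM at 24 h in H47_Ctrl.

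Other immediate-early and serum response factor genes rose in 8 and 7 of 13 tested in the CRISPRko groups and in 6 and 8 of 12 in the CRISPRa groups at 6 h (medians 1.16, 0.88, 0.76 and 1.60), against 15.9%, 23.9%, 28.8% and 17.4% of all genes called. IER3, a survival gene, went from 19.2 ± 5.69 to 2286 ± 994 CPM in H47_Ctrl and from 15.9 ± 4.61 to 2814 ± 362 CPM in VP64_Ctrl. KLF6 rose by 2.12 ± 0.17, 2.21 ± 0.17, 2.08 ± 0.17 and 1.94 ± 0.17 in the 4 groups. EGR1 fell from 6 to 24 h in H47_Ctrl, H47_KO and VP64_Ctrl, and it was low at both times (4.48 and 0.473 CPM in H47_Ctrl). The 24 h libraries of H47_Ctrl were too low to pass the filter on low counts, so the fall there may be partly fixed by that filter.

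Most textbook targets of AP-1 rose: 14 of 16 tested rose at 6 h in H47_Ctrl, 16 in H47_KO, 16 in VP64_Ctrl and 14 in VP64_A, with medians of 2.59, 2.86, 3.09 and 4.52 on the log2 scale, where 15.9%, 23.9%, 28.8% and 17.4% of all genes were called. Many of them are also targets of NF-κB and of SMAD proteins. The list was chosen with earlier results of these data known, so its counts are descriptions and no independent evidence of AP-1 activity. IL6 went from 2.23 ± 0.978 to 2605 ± 1070 CPM in H47_Ctrl. PTGS2, the inducible cyclooxygenase, went from 74.9 ± 6.61 to 1280 ± 529.6 CPM there and was down to 13.97 CPM at 24 h. HBEGF, a ligand of the EGF receptor, went from 2.75 ± 0.958 to 183 ± 27.9 CPM and back to 5.80 CPM. From 6 to 24 h 11, 11, 10 and 11 of the 16 fell, against 14.6%, 24.2%, 18.4% and 12.5% of all genes called.

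Some textbook targets also differed between groups. At 6 h EREG, an EGF family ligand, and MMP1, the interstitial collagenase, were higher in H47_KO than in H47_Ctrl, with EREG at 577 ± 206 against 195 ± 49.4 CPM (1.56 ± 0.25, adjusted p = 0.00128) and MMP1 at 3411 ± 531 against 1246 ± 480 CPM (1.45 ± 0.32, 0.0301), which are 2 of 16 against 0.319% of all genes, and 0 of 16 were called at the other times. In the CRISPRa arm 1 was higher and 7 were lower in VP64_A at 0 h, against 9.41% of all genes called. MMP1 stood at 127 ± 15.2 CPM in VP64_A and 1292 ± 510 CPM in VP64_Ctrl (-3.34 ± 0.31), and MMP3 at 9.49 ± 1.94 and 146 ± 39.1 CPM (-3.93 ± 0.27). At 6 h, 3 were higher and 6 lower, against 3.76% of all genes. IL11, the gene that carries the reporter, was among the higher, at 285 ± 48.9 against 47.01 ± 13.8 CPM (2.64 ± 0.25, adjusted p = 5.15e-09). The cytokine response was larger in VP64_A for 3 of 16 targets at each time and smaller for 0, against 0.0911%, 0.264% and 0.209% of all genes called: IL11, MMP3 and PLAU at 6 h, PTGS2, IL11 and MMP3 at 12 h and PTGS2, MMP1 and MMP3 at 24 h. PTGS2 at 24 h was 244 ± 49.2 CPM in VP64_A and 15.2 ± 4.45 CPM in VP64_Ctrl (4.04 ± 0.31).

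Genes that the study followed as bound by FOSL1 were chosen by the study itself, so their counts are no independent evidence of a direction. Of 11 tested in the CRISPRko arm 9 and 7 rose at 6 h, and of 12 in the CRISPRa arm 9 and 7 (medians 0.76, 0.64, 0.93 and 1.00), against 15.9%, 23.9%, 28.8% and 17.4% of all genes called in H47_Ctrl, H47_KO, VP64_Ctrl and VP64_A. SMOX, spermine oxidase, led in each group with 3.86 ± 0.21, 3.69 ± 0.20, 3.86 ± 0.28 and 3.59 ± 0.29, and PLAUR, the urokinase receptor, followed with 2.03 ± 0.19 to 2.33 ± 0.21. COL5A1, a fibrillar collagen chain, was higher in VP64_A than in VP64_Ctrl at all 4 times (1.81 ± 0.19, 1.44 ± 0.19, 1.30 ± 0.19 and 1.32 ± 0.19). COL7A1, the anchoring fibril collagen, was lower at 0 h (-0.73 ± 0.23) and 24 h (-0.81 ± 0.22). No gene of this list differed between H47_KO and H47_Ctrl by the test.

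The members fell into different time courses. Likeness was taken as the lower of the Pearson correlations of log2 group means over the 8 conditions of each arm, a description without a test, since the conditions share the cytokine course. JUNB and MAFF were the most alike pair (0.923 over the CRISPRko conditions and 0.908 over the CRISPRa conditions). FOSL1 was nearer to JUN (0.798 and 0.621) than FOSL2 was (0.178 and 0.0508). Over the CRISPRa conditions, though, FOSL1 was nearer to ATF3 (0.801), MAFF (0.764) and JUNB (0.732) than to JUN. Of 10691 genes tested in both arms, the courses most like that of FOSL1 were those of TNFRSF10B, a death receptor (0.941), PTX3, a secreted pattern recognition protein (0.929), TOB2 (0.921), CSNK1G1 (0.921) and BAK1, a pore-forming apoptosis protein (0.92). Nearest to JUNB were RELB, an NF-κB subunit (0.969), TRIM36 (0.963) and VAV2 (0.96). Nearest to MAFF were PPIF (0.986), TMEM2 (0.985) and IRAK2, a kinase of IL-1 receptor signalling (0.984). ATF3 was most like PMAIP1, the apoptosis gene NOXA (0.914), MSANTD3 (0.912) and CCL2 (0.909). JUN was most like AXIN1 (0.947), EML4 (0.915) and NOC3L (0.89), and FOSL2 like SERTAD2 (0.937), TGIF1, a repressor of SMAD signalling (0.899), and STK3 (0.868).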

How the data were processed

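RNA-seq was available for 48 libraries, 3 in each of 16 conditions. Per the labels and the study's methods, the authors trimmed reads with Trim Galore, removed ribosomal reads with SortMeRNA, aligned them to GRCh38 with STAR and estimated abundances with Salmon, whose versions and annotation are not given in the sources used here. The authors deposited estimated counts per gene, of which 6.38% were not whole, and TPM values. Groups follow the sample descriptions, which in the CRISPRa arm go against the titles and the genotype and condition fields.

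Estimated counts were rounded and fitted per arm (24 libraries, 8 groups) with the quasi-likelihood test of edgeR 4.0.16 in R 4.3.3, with TMM normalization and filterByExpr (minimum count 10, minimum total 15), which left 10962 CRISPRko and 10980 CRISPRa genes. P-values were adjusted by Benjamini-Hochberg over all genes tested, at a threshold of 0.05, in 30 comparisons; "by the test" means this. FOSL1, FOSL2, JUN, JUNB, ATF3 and MAFF passed the filter in both arms, FOS in the CRISPRa arm only, and FOSB and JUND in neither. SE is the absolute log2 fold change divided by the root of F. Libraries of 2321990 to 10661004 counts limit precision for genes of a few reads, and intervals of summed counts are exact and cover counting error only, since reads without molecular identifiers are not independent molecules. All 48 pairs of libraries within a condition differed by more than sampling noise.

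All 9 members are named, with at most the 4 called genes of largest change per gene list and comparison. The members and lists were chosen with earlier results of these data known. Alternatives were DESeq2 1.42.0, its size factors in edgeR, no filter, other sets of libraries, a blocking term for the replicate number, limma (version 3.58.1) with log2(TPM + 1) or log2(TPM + 0.1), a minimum log2 change of 1 and leaving out each library. The scripts were tested on simulated data.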

Additional observations from a re-analysis of the deposited data

How the results depend on the processing

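Over the cytokine comparisons the main fit called AP-1 members in 11 of 18 tests in H47_Ctrl, 12 of 18 in H47_KO and 14 of 21 in VP64_Ctrl. From 6 to 24 h it called 13 of 26. Under the alternatives these counts ran from 10 to 11, 10 to 13, 10 to 15 and 11 to 16. The number of members tested changes with the filter, so these ranges do not share the number of tests of the main fit. In VP64_A the count of 13 of 21 went to 8 with limma on log2(TPM + 1), on log2(TPM + 0.1) and with no filter, and to 8 with a minimum log2 change of 1. The count for H47_KO against H47_Ctrl was 0 under every alternative, as was that of the response differences in the CRISPRko arm. For VP64_A against VP64_Ctrl the count of 3 became 5 with no filter on low counts and 0 with the minimum change of 1, and 1 to 3 when a library was left out. It was 1, JUNB at 6 h, without VP64_A 0 h replicate 1, VP64_A 0 h replicate 2 or VP64_Ctrl 0 h replicate 3. The response differences in the CRISPRa arm went from 0 to 1 (JUNB at 6 h) with no filter.

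Of 66 called fold changes, 49 kept their direction and call under every alternative in which they were tested. The minimum log2 change of 1 was not part of this count. In the edgeR and DESeq2 alternatives that left out no library of the groups compared, 57 did so. The fit of the compared libraries alone kept 61, lost 3 and did not test the rest. JUN at 6 h over 0 h in VP64_Ctrl reversed with limma on TPM (-0.23 with pseudocount 1, -0.25 with 0.1, -0.23 with no filter). TPM lacks a correction for library composition: with pseudocount 1 the median of all genes moved by -0.631 in that comparison, where 465 of 5735 calls were higher against 1777 of 3165 in edgeR, by 0.484 in H47_KO from 6 to 24 h and by -0.33 in VP64_A over VP64_Ctrl at 0 h. Uncalled values that reversed on TPM (pseudocount 1, then 0.1, then no filter) were FOSL1 in H47_KO over H47_Ctrl at 6 h (-0.055, -0.056, -0.055), MAFF there at 24 h (0.17, 0.18, 0.17), and, in VP64_A over VP64_Ctrl at 24 h, JUN (-0.024, -0.029, -0.024) and JUNB (-0.16, -0.17, -0.16). Leaving out 1 library, FOSL1 in H47_KO over H47_Ctrl at 6 h ran from -0.058 to 0.59, JUNB there at 24 h from -0.66 to 0.026, MAFF there at 24 h from -0.46 to 0.12, and FOSL1 in VP64_A over VP64_Ctrl from -0.32 to 0.035 at 6 h and from -0.19 to 0.17 at 12 h. The cause of these changes was not tested.

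Same-numbered libraries shared only a number: their deviations correlated by -0.0993 to 0.204, and in 0 of 24 comparisons were all pairs over 0.1. With a replicate block no call changed, and FOSL1 and FOSL2 at 0 h and JUNB at 6 h in VP64_A over VP64_Ctrl gave -0.59, -0.54 and 0.83. Depth limits ATF3, FOS, FOSB and JUND.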

Other observations

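TMEM45A, a transmembrane protein on the list of FOSL1-bound genes, was higher in the libraries described as VP64_A than in VP64_Ctrl at all 4 times, by log2 differences of 1.12, 1.14, 1.33 and 1.01. By 12 h 10 of the 12 genes of that list were above 0 h in VP64_A and 8 in VP64_Ctrl, with a median of 1.15 in both, against 19.7% and 26.8% of all genes called, and by 24 h 4 and 5 were, against 13.6% and 16%. The study chose that list itself, so neither TMEM45A nor these counts are independent evidence of a direction. Among the immediate-early and serum response factor genes, MYC was higher (0.96) and KLF10 lower (-0.90) in VP64_A at 0 h.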
